A study of Mus musculus with 45 samples.

Results

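The chemokine system of the mouse liver was described here through every gene whose symbol began with Ccl, Cxcl, Ccr or Cxcr followed by a digit, together with Cx3cl1, Cx3cr1 and Xcl1. Of the 58 symbols that followed this rule, 41 had more than 4 reads in any mouse and were kept (27 ligands and 14 receptors), out of 17464 genes detected by the same minimum. The other 17, among them Ccl8, Ccl11, Ccl12, Ccl20, Cxcl3, Ccr4, Ccr8, Ccr10 and Cxcr1, never exceeded 4 reads in a mouse, and no level is given for them.

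Liver RNA was sequenced from 45 female C57BL/6 mice, 5 per group. The vehicle group received sesame oil by gavage and the other 8 groups received TCDD, the dioxin 2,3,7,8-tetrachlorodibenzo-p-dioxin, in the same oil at 30, 10, 3, 1, 0.3, 0.1, 0.03 or 0.01 µg/kg. Dosing started at postnatal day 28 and was repeated every 4 days for 28 days. The deposited labels describe the mice as ovariectomized and also use the word daily for the gavage, whereas the methods of the study mention no ovariectomy.

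Chemokines are small secreted proteins that guide leukocytes along concentration gradients, and their receptors are G protein-coupled receptors carried mostly by those leukocytes. CC ligands mainly draw monocytes, T cells and dendritic cells, whereas CXC ligands include neutrophil attractants and the interferon-induced ligands of Cxcr3. In the liver, ligands come from hepatocytes, Kupffer cells, stellate cells and the endothelium. TCDD acts through the aryl hydrocarbon receptor, a ligand-activated transcription factor that binds the dioxin response element (DRE), whose core is GCGTG. In whole-liver RNA, fewer cells of a type and less RNA per cell cannot be told apart.

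Upstream sequences were taken for the 30 members with an entry in the RefSeq promoter table (GRCm38.p6), as the 250 bases before the transcription start, and searched on both strands for the DRE core GCGTG, the kappaB letters (GGG and TTTCC with any 2 bases between them) and the interferon-response letters (GAAA and GAAA with any 2 bases between them). The DRE core was present for 36.7% of these members and for 30.9% of all 27025 genes in the table. The kappaB letters occurred in 13.3% of the members against 1.65% of all genes and the interferon-response letters in 10.0% against 3.46%, which rests on 4 and 3 members. Among the 10 matched members that were higher at 30 µg/kg, 4 held a DRE core (Ccr1, Cxcl10, Cxcl14 and Cxcr4) and 0 held the kappaB letters, which occurred upstream of Ccl9, Ccr3, Cxcl1 and Cxcl2. A DRE core was also present for 2 of 5 lower members and 5 of 15 members that were not called. A match is a description of the letters and says nothing about binding. Other spellings of the kappaB site were not searched, so a sequence with 0 matches, such as that of Cxcl10, may still hold such a site. In all, 4 of these sequences are printed, 5′ to 3′ on the strand of the gene, with matches in capitals. Ccr1 is shown as the receptor with the largest log2 fold change among those with reads in the vehicle group, Cxcl10 and Cxcl14 as higher ligands with more than 1 kind of match, and Cxcl12 as the most abundant member and a lower ligand with no match. In Ccr1 (chr9:123968693-123968942, minus strand) the capitals mark a DRE core read on the opposite strand. In Cxcl10 (chr5:92348890-92349139, minus strand) they mark a DRE core on the opposite strand followed by the interferon-response letters. In Cxcl14 (chr13:56296552-56296801, minus strand) they mark the interferon-response letters and then a pair of DRE cores, and Cxcl12 lies at chr6:117168285-117168534 on the plus strand.
Ccr1: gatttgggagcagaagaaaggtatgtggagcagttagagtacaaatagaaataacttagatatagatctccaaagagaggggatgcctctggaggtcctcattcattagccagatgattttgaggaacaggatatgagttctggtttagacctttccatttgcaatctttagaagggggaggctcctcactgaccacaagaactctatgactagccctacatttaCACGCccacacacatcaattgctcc
Cxcl10: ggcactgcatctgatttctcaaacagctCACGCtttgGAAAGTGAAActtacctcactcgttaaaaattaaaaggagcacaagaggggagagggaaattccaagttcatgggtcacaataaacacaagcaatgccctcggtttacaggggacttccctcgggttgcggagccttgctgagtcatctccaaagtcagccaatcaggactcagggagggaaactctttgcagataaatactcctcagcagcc
Cxcl14: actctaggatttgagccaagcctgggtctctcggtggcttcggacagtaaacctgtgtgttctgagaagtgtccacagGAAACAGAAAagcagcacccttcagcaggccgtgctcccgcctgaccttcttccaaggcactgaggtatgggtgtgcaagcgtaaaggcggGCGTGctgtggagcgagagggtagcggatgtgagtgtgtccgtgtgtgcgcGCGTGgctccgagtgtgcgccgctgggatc
Cxcl12: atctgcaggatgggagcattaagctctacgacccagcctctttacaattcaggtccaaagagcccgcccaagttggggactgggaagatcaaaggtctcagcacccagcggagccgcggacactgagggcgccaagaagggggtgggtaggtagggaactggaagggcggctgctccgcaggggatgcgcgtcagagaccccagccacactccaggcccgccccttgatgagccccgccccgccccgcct

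Between 11767284 and 56509899 reads per mouse fell on genes. Cyp1a1, the cytochrome P450 that TCDD induces, was between 1.34 and 16.7 counts per 1000000 reads (CPM) in the vehicle mice and between 6020 and 9063 CPM at 30 µg/kg. A pair of libraries at 0.01 µg/kg stood apart. Mouse 2 of that group had 2.93 CPM of Xist, the X-inactivation RNA of female cells, against at least 1112 CPM in every other library, and no library held a read on 4 Y-linked genes. Mouse 5 of that group had 69.7 CPM of Cyp1a1, where the other 4 mice of the group had 1.18 to 4.54 CPM, and a summed level of 987 CPM for 8 Kupffer cell and macrophage markers against 140 to 295 CPM in the other 4. Mouse numbers follow the order of the deposited libraries and link no groups.

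At the top dose, more of the chemokine genes were higher than of all genes, while the share that was lower was near that of all genes. At 30 µg/kg, 19 of the 41 members (46.3%) were higher than in vehicle mice, 5 (12.2%) were lower and 17 passed the test in neither direction (edgeR quasi-likelihood test, Benjamini-Hochberg adjusted p under 0.05). Over all detected genes at this dose, 15.5% were higher and 14.1% lower. The split over all genes depended on scaling, since 52.3% of the changed genes were higher with TMM normalization and 80.3% with library totals alone. With library totals the members gave 22 higher and 5 lower. With a fold change of at least 2 also required, 17 were higher and 2 lower (8.03% and 3.42% of all genes). The median log2 fold change of the members was 0.96, also with the members at 0 vehicle reads set to their lower bound, against 0.02 for all genes. Of the 27 members with more than 4 reads in a vehicle mouse, 12 were higher and 5 lower. The other 14 members passed the read minimum only through TCDD mice, so that the minimum itself favoured increases, and 7 of them were higher and 0 lower.

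The number of changed members was larger at each step above 1 µg/kg, as it was over all genes. At 3 µg/kg, 10 members were higher and 0 lower, where 4.34% and 3.20% of all genes were called (edgeR, with 18 members higher and 3 lower at an unadjusted p under 0.05, and 1 lower with DESeq2). At 10 µg/kg, 10 members were higher and 5 lower, against 8.47% and 7.47% of all genes. With a fold change of at least 2, these counts were 9 and 0 at 3 µg/kg (2.15% and 0.819% of all genes) and 9 and 1 at 10 µg/kg (3.81% and 1.73%). From 0.01 to 1 µg/kg the edgeR test called 0 members, with 0%, 0.0344%, 0.0229%, 0.321% and 1.24% of all genes higher and 0%, 0.0229%, 0%, 0.143% and 0.515% lower at the 5 doses in turn. At an unadjusted p under 0.05, between 2 and 4 members were higher at 0.03, 0.1 and 0.3 µg/kg, with 5 at 0.01 µg/kg and 11 at 1 µg/kg, 1 was lower at 0.1 µg/kg and 0 at the other 4 doses. The share of all genes at an unadjusted p is not given in this report. Unadjusted counts are therefore not read as a result about the members. DESeq2 also called 0 at these doses, where it left between 0 and 11 members without an adjusted p. Leaving out mouse 2 or mouse 5 of the 0.01 µg/kg group kept both counts at that dose at 0.

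Tested over the rank of the 9 groups, 21 members rose with dose and 6 fell, where 20.8% of all genes rose and 19.7% fell. Any difference among the groups (F test of the 8 dose coefficients) was found for 21 members, and for 28.8% of all genes. Ccl6, Ccl7, Ccr6, Cxcl5 and Cxcr2, which were higher at 30 µg/kg, were not among these 21. Without mouse 5 of the 0.01 µg/kg group, 24 members rose, 5 fell and 23 differed among groups. The steps from 1 to 3, 3 to 10 and 10 to 30 µg/kg, tested as differences between neighbouring doses, gave 0 changed members with edgeR, where 0.155%, 0.550% and 0.429% of all genes were higher and 0.0229%, 0.235% and 0.183% lower. At an unadjusted p under 0.05, 2, 2 and 3 members were higher and 1, 4 and 2 lower at these steps. A share of all genes is not given for these unadjusted counts, and the steps were not run with DESeq2. The members called at a dose and not at its neighbour were therefore not shown to differ between those doses.

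**Figure D1:**
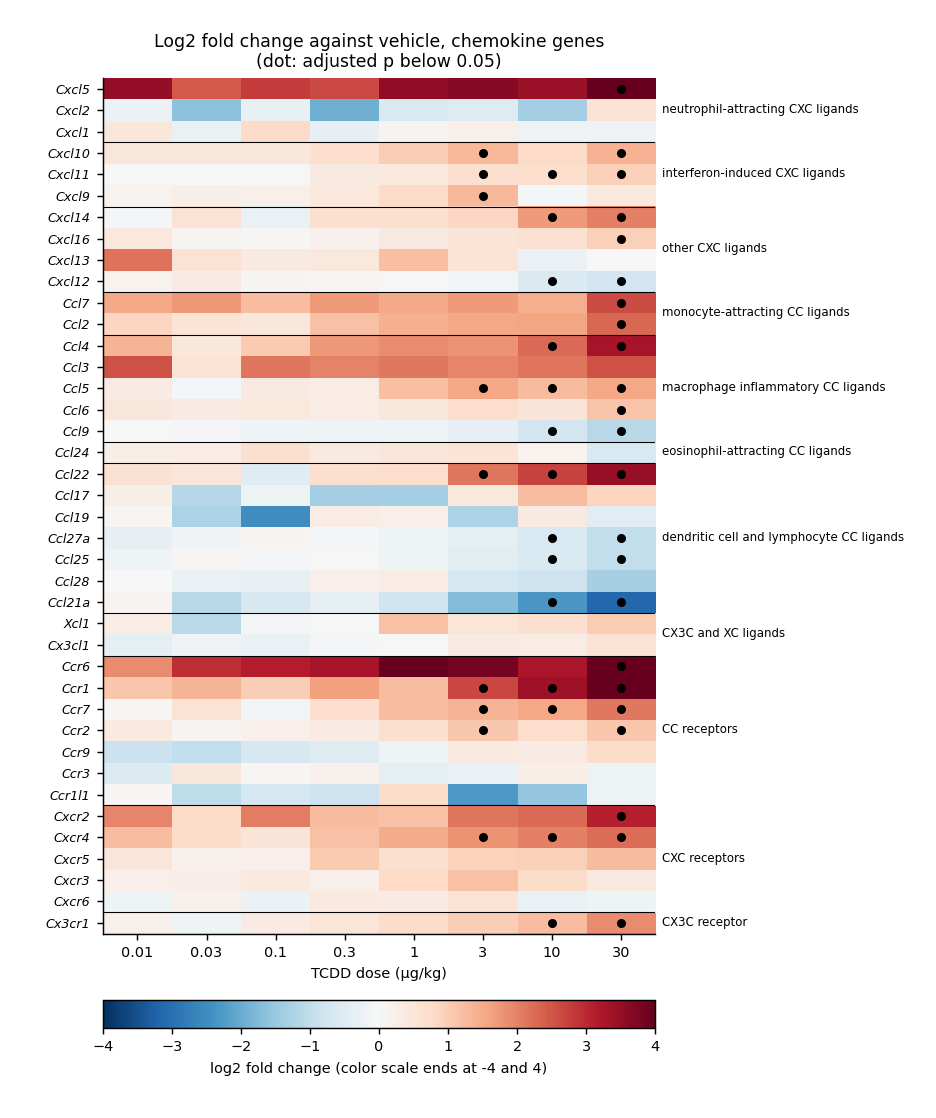
Log2 fold change against vehicle (color) of the members reported by name (rows, grouped by role) at the 8 doses (columns, µg/kg), with a dot where the adjusted p was below 0.05 in the edgeR quasi-likelihood test (5 mice per group). Dots lie at 3 µg/kg and above, and those of Cxcl5 and Ccr6 rest on 0 reads in the vehicle mice.

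Between vehicle and 30 µg/kg, 11 members were higher in every treated mouse than in any vehicle mouse (10.3% of all genes) and 4 were lower in every treated mouse (9.57% of all genes). A single library was low for most of the higher members. Mouse 4 of the 30 µg/kg group was the lowest of its 5 mice for 17 of the 19 higher members, and its summed receptors were 15.4 CPM where the other 4 mice had 26.4 to 30.6 CPM. Its Cyp1a1 level was 9063 CPM, the highest of the 5. Without this mouse, 20 members were higher and 5 lower.

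At 3 µg/kg, mouse 1 was the highest of its group for 15 of those 19 members, with summed receptors of 39.5 CPM against 16.2 to 27.3 CPM in the other 4 mice. Without it, 6 members were higher in place of 10. At 0.01 µg/kg, mouse 5 was the highest of its group for 13 of the 19 members, with summed receptors of 29.4 CPM against 9.61 to 15.4 CPM in the other 4. In all, 3 of the 10 members called at 3 µg/kg (Ccl5 and Ccr1 among them) were called in each of the 10 fits that left out a vehicle or 3 µg/kg mouse, with 5 to 10 members called. The same held for 9 of 15 members at 10 µg/kg and 22 of 24 at 30 µg/kg. Without vehicle mouse 1, 2, 3 or 5, 5 members were higher at 3 µg/kg, and without vehicle mouse 4 or 3 µg/kg mouse 2 or 5, 6 were.

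Markers of some leukocytes were also higher, at a share to be read against the 15.5% of all genes that were higher at 30 µg/kg. The summed level of 8 Kupffer cell and macrophage markers was 156 to 242 CPM in vehicle mice and 133 to 403 CPM at 30 µg/kg, where mouse 4 had the 133 CPM, and 2 of the 8 (Csf1r and Cd68) were higher. At 3 µg/kg mouse 1 had 626 CPM against 215 to 398 CPM in the other 4. Neutrophil markers were 1.02 to 2.12 CPM in vehicle mice and 3.79 to 12.3 CPM at 30 µg/kg, without overlap, with 4 of 7 tested genes higher (Mmp8, S100a9, S100a8 and Csf3r). Among 8 markers of monocytes and recruited macrophages 4 were higher, and Gpnmb went from 0.134 ± 0.0884 to 17.9 ± 11.6 CPM (log2 fold change 6.99, SE 0.61, adjusted p = 3.8e-12). Higher genes numbered 1 of 8 for T cells, no larger a share than that of all genes, 2 of 6 for B cells, 3 of 6 for natural killer cells and 3 of 6 for dendritic cells. The summed levels of the macrophage, monocyte, T cell, B cell and dendritic cell markers overlapped between vehicle and 30 µg/kg, and those of natural killer cell markers did not. Stellate cell and fibroblast markers went from 133 to 185 CPM up to 283 to 518 CPM with 4 of 8 higher. Endothelial markers were higher for 4 of 6, with sums that overlapped, and 5 of 5 red blood cell markers were higher. Of 5 hepatocyte markers 4 were lower, against 14.1% of all genes. Their summed level overlapped, at 112200 to 142900 CPM in vehicle mice and 104200 to 154700 CPM at 30 µg/kg. This sum was carried by the marker that was not called, at 111500 ± 12430 CPM in vehicle mice and 105500 ± 20270 CPM at 30 µg/kg. It therefore does not show the fall of the others. Markers of cholangiocytes, platelets, pancreas and adipose tissue gave 0 calls with edgeR and with DESeq2 (1 pancreas marker, Ctrb1, was higher at an unadjusted p under 0.05), and the pancreas markers had 0 reads in the vehicle mice. The part of these cell markers in the chemokine results was not tested.

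**Figure D2:**
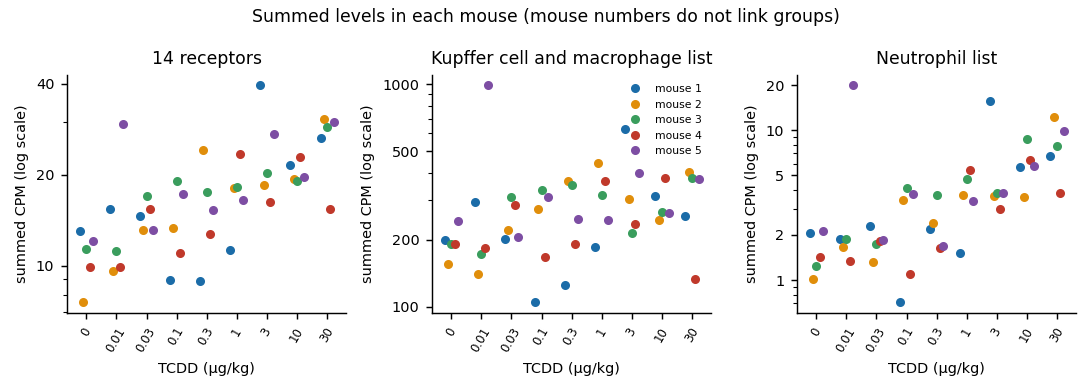
Summed level (CPM, log scale) of the 14 receptors, of 8 Kupffer cell and macrophage markers and of the neutrophil markers in each of the 45 mice against TCDD dose (µg/kg), with colors for mouse numbers, which link no groups. Mouse 4 at 30 µg/kg is the lowest of its group in all 3 panels (15.4, 133 and 3.79 CPM), and mouse 5 at 0.01 µg/kg and mouse 1 at 3 µg/kg are the highest of theirs.

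Every receptor that passed the test at 30 µg/kg was higher. At 30 µg/kg, 8 of 14 receptors were higher and 0 lower (edgeR), where 15.5% of all genes were higher and 14.1% lower. At an unadjusted p under 0.05, 9 were higher and 0 lower, and DESeq2 also gave 0 lower. The median log2 fold change of the 14 was 1.26. Of the higher receptors, Ccr1, Ccr6 and Cxcr2 passed the read minimum only through TCDD mice, so that the minimum favoured increases here too. The summed level of the 14 receptors was 10.8 ± 2.13 CPM (SD, n = 5) in vehicle mice, 24.4 ± 9.44 CPM at 3 µg/kg, 20.5 ± 1.64 CPM at 10 µg/kg and 26.2 ± 6.25 CPM at 30 µg/kg. The lowest mouse at 30 µg/kg, at 15.4 CPM, was above the highest vehicle mouse at 13.0 CPM, so that the groups did not overlap in this sum.

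Ccr1, the receptor on monocytes and neutrophils for Ccl3, Ccl5, Ccl6 and Ccl9, had the largest increase of the receptors with vehicle reads. Its level in the vehicle mice was 0.0708, 0.0636, 0, 0.124 and 0.101 CPM, from 6 reads in all. At 30 µg/kg it was 1.94, 1.60, 1.77, 1.11 and 2.24 CPM, from 169 reads. Every mouse at 30 µg/kg was above every vehicle mouse, and the log2 fold change of Ccr1 was 4.46 (SE 0.44, adjusted p = 8.5e-11, edgeR). It was higher at the other top doses too, with a mean of 0.504 ± 0.164 CPM at 3 µg/kg (log2 fold change 2.67, SE 0.49, adjusted p = 0.000191) and 0.829 ± 0.195 CPM at 10 µg/kg (3.38, SE 0.46, adjusted p = 5.1e-07). Below 3 µg/kg the group means lay between 0.133 and 0.242 CPM and passed no test.

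Ccr2 and Cx3cr1, receptors of monocytes and macrophages, also rose. Ccr2, the receptor for Ccl2 and Ccl7 on inflammatory monocytes, was 2.05, 1.97, 2.65, 1.49 and 1.92 CPM in the vehicle mice and 4.64, 4.29, 4.03, 3.51 and 5.61 CPM at 30 µg/kg. These values did not overlap, and the log2 fold change was 1.12 (SE 0.31, adjusted p = 0.00493). Cx3cr1, the fractalkine receptor of patrolling monocytes and macrophages, went from 0.566, 0.572, 0.616, 0.495 and 0.253 CPM to 2.03, 2.23, 1.91, 1.504 and 1.603 CPM. It did not overlap between the groups and rose by a log2 fold change of 1.90 (SE 0.37, adjusted p = 0.0001025). It was also higher at 10 µg/kg (1.24, SE 0.38, adjusted p = 0.0196), a call lost without vehicle mouse 5 or without mouse 1 or 5 of that dose. Ccr2 was called at 3 and 30 µg/kg and not at 10 µg/kg (0.71, SE 0.31, adjusted p = 0.114), and its call at 3 µg/kg was lost in 4 of the 10 fits that left out a mouse. Cx3cr1 shares exon positions with Gm33858 on the other strand.

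Receptors of dendritic cells, lymphocytes and progenitors were also among the higher members. Ccr7, which takes dendritic cells and naive T cells to lymph nodes, was 0.0708, 0.0636, 0.247, 0.433 and 0.253 CPM in vehicle mice and 0.992, 1.20, 0.884, 0.557 and 1.20 CPM at 30 µg/kg. No mouse overlapped, and the log2 fold change was 2.11 (SE 0.43, adjusted p = 0.0002011). Cxcr4, the receptor for Cxcl12, was 0.142, 0.0636, 0.123, 0.248 and 0.303 CPM in vehicle mice and 0.721, 1.15, 0.813, 0.501 and 1.28 CPM at 30 µg/kg. These groups did not overlap either, and the log2 fold change was 2.24 (SE 0.49, adjusted p = 0.000482). Both genes were also higher at 3 µg/kg (Ccr7 1.37, SE 0.45, adjusted p = 0.0488, and Cxcr4 1.81, SE 0.50, adjusted p = 0.0182) and at 10 µg/kg (1.55, SE 0.44, adjusted p = 0.0118, and 2.02, SE 0.49, adjusted p = 0.00305). The calls at 3 µg/kg were lost in 8 of the 10 fits that left out a mouse for Ccr7 and in 2 for Cxcr4 (without vehicle mouse 2 or 3). Ccr6, carried by B cells and T helper 17 cells, had 0 reads in the vehicle mice and 13 reads at 30 µg/kg, at least 3.61-fold higher against 3 counts over the vehicle group. Cxcr2, the receptor of neutrophils for Cxcl1, Cxcl2 and Cxcl5, had 3 reads in vehicle mice and 35 at 30 µg/kg, a ratio of 9.73 (95% exact interval 3.07 to 49.4, counting error only).

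The remaining 6 receptors did not pass the test at 30 µg/kg. Cxcr3, the receptor for Cxcl9, Cxcl10 and Cxcl11 on activated T cells, had a log2 fold change of 0.36 (SE 0.46, adjusted p = 0.607). Cxcr6, the receptor for Cxcl16 on natural killer T cells, was 1.42, 0.445, 0.740, 0.928 and 1.67 CPM in vehicle mice and 1.04, 1.03, 0.849, 0.836 and 0.882 CPM at 30 µg/kg, inside the vehicle range. The fitted log2 fold change was -0.17 (SE 0.38, adjusted p = 0.774). Cxcr5, Ccr9, Ccr3 and Ccr1l1 lay between 1.26 and -0.20 on the log2 scale, with adjusted p of 0.0946, 0.234, 0.806 and 0.892 in that order. Ccr9 shares exon positions with Slc6a20a and other genes and Cxcr5 with Bcl9l. Where the other gene lies on the other strand, as with Slc6a20a and Bcl9l, reads cannot be told apart here. The strand setting of the counting is not given in the sources used here. Ccr9 also shares positions with Gm17200 on its own strand, where no strand setting would separate the reads.

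**Figure D3:**
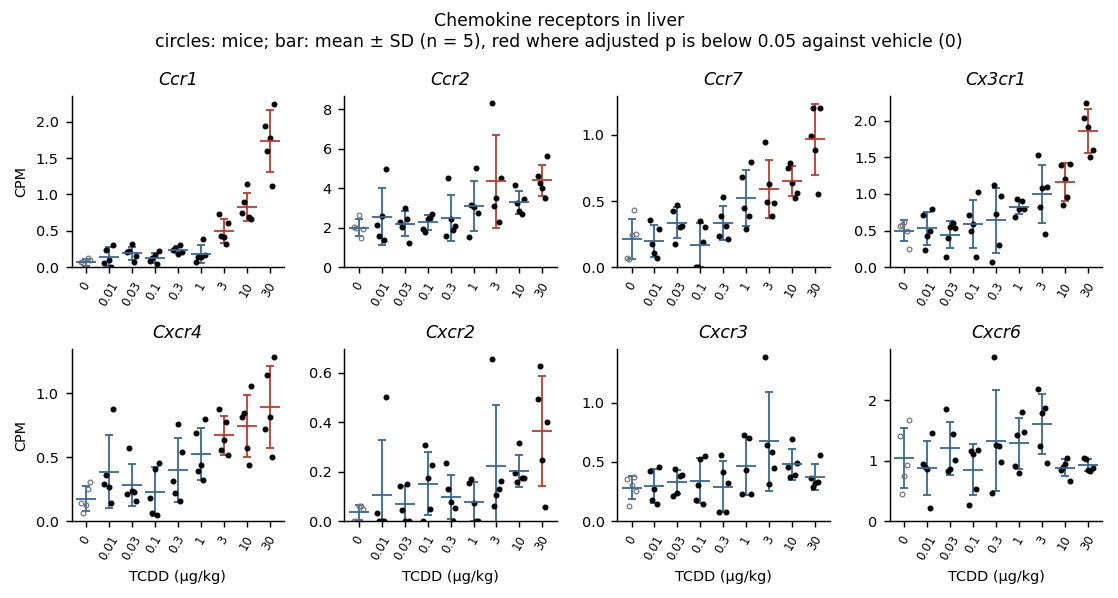
Level (CPM) of 8 receptors in each mouse (circles, open for vehicle) against TCDD dose (µg/kg, 0 for vehicle), with the mean ± SD of 5 mice, red where the adjusted p was below 0.05 against vehicle (edgeR) and cut at 0. The mean of Ccr1 is 0.0718 CPM in vehicle mice and 1.73 CPM at 30 µg/kg, whereas that of Cxcr6 is 1.04 and 0.927 CPM, and mouse 4 at 30 µg/kg is the lowest of its group for Ccr1 (1.11 CPM).

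Among the ligands, 11 of 27 (40.7%) were higher and 5 (18.5%) lower at 30 µg/kg, against 15.5% and 14.1% of all genes. Their median log2 fold change was 0.87. Of the higher ligands, Ccl4, Ccl7, Ccl22 and Cxcl5 passed the read minimum only through TCDD mice, whereas all 5 lower ligands passed it in a vehicle mouse. The monocyte attractants Ccl2 and Ccl7, neighbours on chromosome 11, were both higher. Ccl2 was 0.354, 0, 0.185, 0.371 and 0.253 CPM in the vehicle mice and 1.397, 2.003, 0.743, 0.0557 and 1.76 CPM at 30 µg/kg. In 4 of the 5 mice it was above all vehicle mice, while mouse 4 held 1 read, and the log2 fold change was 2.30 (SE 0.60, adjusted p = 0.00275, edgeR). Ccl7 had 2 reads in vehicle mice and 18 at 30 µg/kg, a ratio of 7.51 (95% exact interval 1.80 to 66.7, counting error only). Its mice overlapped between the groups, and its call was lost with the expression filter of edgeR.

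Of the 5 macrophage inflammatory CC ligands, 3 were higher and 1 lower at 30 µg/kg, against 15.5% and 14.1% of all genes. Ccl5, a T cell and monocyte attractant made by lymphocytes and macrophages, was 0.708, 0.318, 0.247, 0.743 and 0.607 CPM in vehicle mice and 1.31, 2.06, 1.34, 1.11 and 2.003 CPM at 30 µg/kg. The groups did not overlap, the log2 fold change was 1.55 (SE 0.40, adjusted p = 0.00259), and it was 1.53 at 3 µg/kg (SE 0.39, adjusted p = 0.0108). Ccl4 had 3 reads in vehicle mice and 40 at 30 µg/kg, a ratio of 11.1 (95% exact interval 3.54 to 56.2), and did not overlap. Its neighbour Ccl3 had 2 and 17 reads and did not pass the test (adjusted p = 0.0685).

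Ccl6 and Ccl9, macrophage attractants that bind Ccr1, lie side by side on chromosome 11 and moved in opposite directions. Ccl6 was 5.59, 4.20, 4.87, 5.45 and 5.31 CPM in vehicle mice and 8.38, 19.0, 11.2, 3.51 and 13.7 CPM at 30 µg/kg, with mouse 4 below all vehicle mice. Its log2 fold change was 1.13 (SE 0.36, adjusted p = 0.0157), and it was lost without mouse 2 of the 30 µg/kg group (0.85, adjusted p = 0.0890). Ccl9 was 107, 118, 122, 113 and 114 CPM in vehicle mice and 43.9, 47.6, 61.4, 63.7 and 46.5 CPM at 30 µg/kg. All treated mice were below all vehicle mice, with a log2 fold change of -1.12 (SE 0.13, adjusted p = 3.8e-09). Ccl9 was lower at 10 µg/kg as well (-0.78, SE 0.13, adjusted p = 1.4e-05).

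The 3 interferon-induced ligands of Cxcr3 were all higher at 3 µg/kg, and Cxcl10 and Cxcl11 were also higher at 30 µg/kg. Cxcl11 was 8.70, 8.20, 8.01, 7.24 and 8.59 CPM in vehicle mice and 19.6, 13.6, 17.0, 13.7 and 15.7 CPM at 30 µg/kg. It did not overlap and was higher at 3, 10 and 30 µg/kg, with a log2 fold change of 0.96 at the top dose (SE 0.20, adjusted p = 0.0002044). Cxcl10 was 1.34, 2.04, 2.40, 2.97 and 2.53 CPM in vehicle mice and 8.52, 7.61, 4.67, 2.06 and 6.89 CPM at 30 µg/kg. Mouse 4 was inside the vehicle range, and the log2 fold change was 1.39 (SE 0.36, adjusted p = 0.00314). Cxcl9 was called at 3 µg/kg alone (1.29, SE 0.40, adjusted p = 0.0394), where the mice ranged from 8.52 to 57.1 CPM, with a call that was lost in 8 of the 10 fits that left out a mouse. At the same dose the call of Cxcl11 was lost in 7 of the 10 and that of Cxcl10 in 2 (without vehicle mouse 1 or without mouse 2 of that dose), and without vehicle mouse 1 all 3 calls were lost. At 30 µg/kg it was 16.2 ± 7.55 CPM against 12.3 ± 2.09 CPM (0.39, SE 0.40, adjusted p = 0.506). Cxcl10 shares exon positions with Art3 and Cxcl11 with Gm2673, each on the other strand.

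Ccl22 had the largest increase among the ligands with a mean of at least 10 reads per mouse, ahead of Ccl2 and Cxcl14. Ccl22, which dendritic cells and macrophages make to draw T cells bearing Ccr4, was 0.0708, 0.127, 0, 0.124 and 0.101 CPM in vehicle mice and 0.766, 1.09, 0.955, 0.557 and 1.84 CPM at 30 µg/kg. Ccl22 rose by a log2 fold change of 3.49 (SE 0.63, adjusted p = 3.0e-05), with increases also at 3 µg/kg (2.13, SE 0.68, adjusted p = 0.0457) and 10 µg/kg (2.71, SE 0.65, adjusted p = 0.00274), of which the call at 3 µg/kg was lost in 7 of the 10 fits that left out a mouse. Cxcl14, a ligand of epithelia and fibroblasts, went from 0.849, 0.382, 0.431, 0.186 and 0.657 CPM to 1.76, 2.35, 1.52, 1.39 and 3.37 CPM. Neither gene overlapped between the groups, and the log2 fold change of Cxcl14 was 2.01 (SE 0.39, adjusted p = 9.9e-05), after 1.69 at 10 µg/kg (SE 0.39, adjusted p = 0.00180). Ccl17, which shares the receptor Ccr4 and the locus of Ccl22 on chromosome 8, had 3 reads in vehicle mice and 7 at 30 µg/kg. Cxcl16, the ligand of Cxcr6 and a scavenger receptor for oxidized lipoproteins, was 6.44, 3.94, 5.05, 2.72 and 6.37 CPM in vehicle mice and 9.06, 11.3, 10.4, 5.29 and 11.1 CPM at 30 µg/kg, and rose by a log2 fold change of 0.94 (SE 0.24, adjusted p = 0.00289). Its exons overlap those of Zmynd15 on the other strand.

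**Figure D4:**
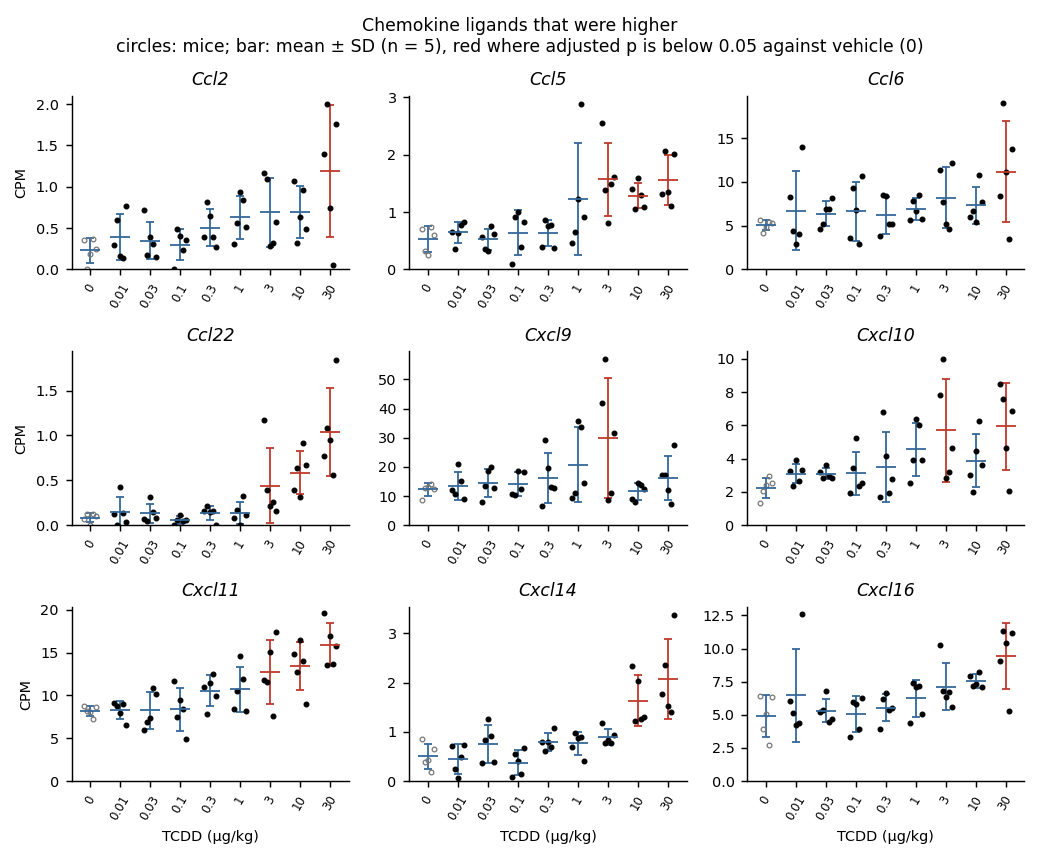
Level (CPM) of 9 ligands in each mouse (circles, open for vehicle) against TCDD dose (µg/kg), with the mean ± SD of 5 mice, red where the adjusted p was below 0.05 against vehicle (edgeR) and cut at 0. Ccl22 and Cxcl14 are red at 10 and 30 µg/kg, Cxcl9 spreads from 8.52 to 57.1 CPM at 3 µg/kg, and mouse 4 at 30 µg/kg is low for Ccl2 (0.0557 CPM), Ccl6 (3.51 CPM), Cxcl10 (2.06 CPM) and Cxcl16 (5.29 CPM).

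The ligands most abundant in the liver were among those that fell. Per length, Cxcl12, which keeps Cxcr4-bearing cells in place, was at 64.9 reads per kilobase of exon per 1000000 reads (RPKM) in vehicle mice and Ccl9 at 37.7 RPKM, ahead of Cxcl9 at 4.07, Ccl6 at 2.83 and Cxcl1 at 2.65 RPKM. Cxcl12 was 464, 506, 560, 512 and 612 CPM in vehicle mice and 283, 315, 324, 322 and 329 CPM at 30 µg/kg. The groups did not overlap, and the log2 fold change was -0.75 (SE 0.13, adjusted p = 2.8e-05). It was -0.57 at 10 µg/kg (SE 0.13, adjusted p = 0.00204) and -0.12 at 3 µg/kg (SE 0.13, adjusted p = 0.688). At 30 µg/kg the order per length was Cxcl12 (38.5 RPKM), Ccl9 (17.3 RPKM), Ccl6 (6.21 RPKM) and Cxcl9 (5.38 RPKM).

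The summed level of the 41 members, which was not tested, was carried by these 2 genes. It was 632 to 794 CPM in vehicle mice (705 ± 63.5 CPM) and 432 to 501 CPM at 30 µg/kg (470 ± 28.7 CPM), without overlap, of which Cxcl12 and Ccl9 together made up 91.5% and 78.3%. Without these 2 genes, the sum was 59.6 ± 6.57 CPM in vehicle mice and 102 ± 25.1 CPM at 30 µg/kg.

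The other 3 lower ligands are homeostatic chemokines of lymphoid and epithelial tissue. Ccl25, the ligand of Ccr9, was 3.40, 1.34, 2.16, 3.22 and 3.79 CPM in vehicle mice and 1.26, 1.72, 1.45, 1.62 and 0.962 CPM at 30 µg/kg, with a log2 fold change of -0.98 (SE 0.23, adjusted p = 0.000949). Ccl27a, the ligand of Ccr10, was 4.25, 3.43, 2.65, 2.35 and 4.35 CPM in vehicle mice and 1.85, 1.32, 1.49, 2.34 and 1.68 CPM at 30 µg/kg, with a log2 fold change of -0.98 (SE 0.23, adjusted p = 0.000887). Ccl25 overlapped between groups through vehicle mouse 2, and Ccl27a was separated by a gap of less than its spread. At 10 µg/kg both were lower as well, Ccl25 by a log2 fold change of -0.62 (SE 0.22, adjusted p = 0.0493) and Ccl27a by -0.62 (SE 0.22, adjusted p = 0.0481). These calls at 10 µg/kg were lost in 8 and 6 of the 10 fits that left out a mouse, and both ended with library totals only, with no filter on low counts and with vehicle and the dose fitted alone. Ccl21a, a ligand of Ccr7, had 34 reads in vehicle mice and 4 at 30 µg/kg, with a log2 fold change of -3.15 (SE 0.73, adjusted p = 0.000935), and of -2.33 at 10 µg/kg (SE 0.63, adjusted p = 0.00820). Ccl25 shares exon positions with Elavl1 and Ccl27a with Il11ra1. Ccl21a and Ccl27a have near-identical copies in the genome, of which Ccl21b and Ccl27b held 0 reads in the 45 mice. Reads with more than 1 alignment stayed uncounted, so reads shared with a copy may be missing from these levels. For these reasons the values are uncertain. Ccl19, the other ligand of Ccr7, had 6 and 5 reads, and Ccl24, an eosinophil attractant of macrophages, had a log2 fold change of -0.61 (SE 0.38, adjusted p = 0.227).

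**Figure D5:**
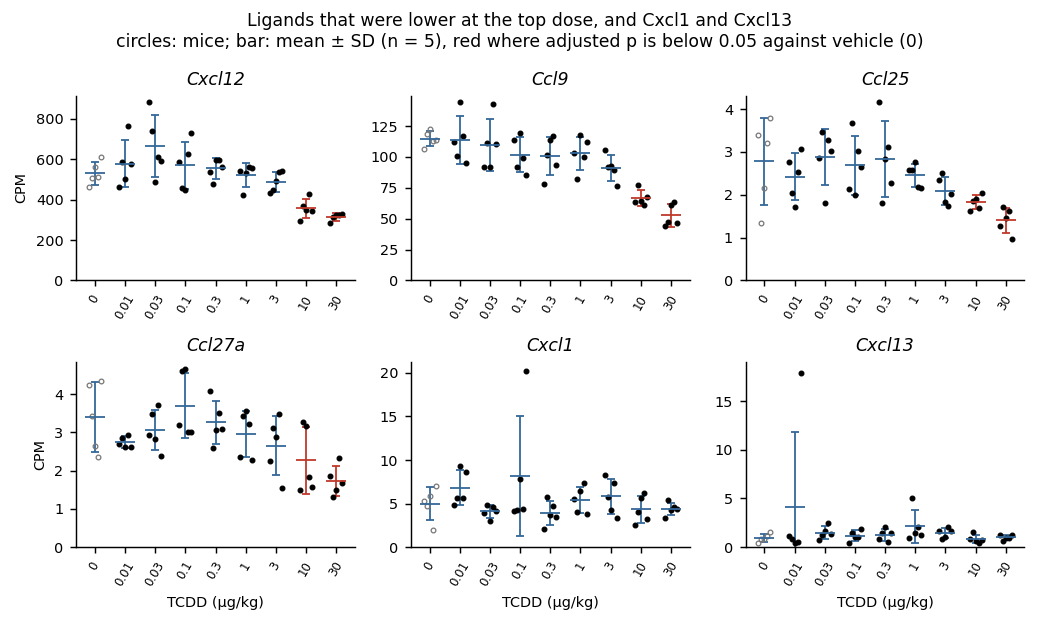
Level (CPM) of Cxcl12, Ccl9, Ccl25, Ccl27a, Cxcl1 and Cxcl13 in each mouse (circles, open for vehicle) against TCDD dose (µg/kg), with the mean ± SD of 5 mice, red where the adjusted p was below 0.05 against vehicle (edgeR) and cut at 0. Cxcl12 and Ccl9 are red at 10 and 30 µg/kg, whereas Cxcl13 has 1 mouse at 17.9 CPM at 0.01 µg/kg and Cxcl1 has 1 at 20.3 CPM at 0.1 µg/kg.

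Of the 3 neutrophil-attracting CXC ligands, Cxcl5 alone passed the test at 30 µg/kg. Cxcl1 was 4.38 ± 0.739 CPM at 30 µg/kg against 4.98 ± 1.87 CPM in vehicle mice (log2 fold change -0.19, SE 0.35, adjusted p = 0.722), and Cxcl2 had 8 reads in vehicle mice and 14 at 30 µg/kg. Cxcl5 had 0 and 10 reads, at least 2.78-fold higher against 3 counts over the vehicle group, and was not called by DESeq2 or in 5 of the 10 fits that left out a mouse. Cx3cl1, the membrane-bound ligand of Cx3cr1, and Xcl1, a ligand of cross-presenting dendritic cells, had log2 fold changes of 0.59 (SE 0.32, adjusted p = 0.163) and 1.02 (SE 0.53, adjusted p = 0.152). Xcl1 shares exon positions with Gm20743 on the other strand. Cxcl13, the B cell attractant that binds Cxcr5, was 0.981 ± 0.274 CPM at 30 µg/kg and 0.947 ± 0.425 CPM in vehicle mice (log2 fold change 0.02, SE 0.72, adjusted p = 0.991). Its call among the members falling with dose rank was lost without mouse 5 at 0.01 µg/kg.

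Pairs of ligands and receptors differed in how their sides moved. Ccl2 and Ccl7 rose with Ccr2. Of the ligands of Ccr1, which rose, Ccl5 and Ccl6 rose, Ccl9 fell and Ccl3 was not called. Cxcr4 rose while its ligand Cxcl12 fell, and Ccr7 rose while Ccl21a fell. Cxcl10, Cxcl11 and Cxcl16 rose without a call for Cxcr3 or Cxcr6, and Cx3cr1 rose without a call for Cx3cl1. These statements set calls on RNA side by side, and the difference between the members of a pair was not tested. Whether a ligand or receptor was made as a working protein was not measured.

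By position in GRCm38, 25 of the 41 members fell into 7 groups with gaps under 500 kb. The CC receptor group on chromosome 9 held 7 members, with Ccr1 and Ccr2 among those higher at 30 µg/kg and Ccr9 and Cxcr6 among those not called. The group on chromosome 11 from 83525778 to 83664683 held Ccl5, Ccl9, Ccl6, Ccl3 and Ccl4, with 3 higher and 1 lower. The Cxcl9, Cxcl10 and Cxcl11 group on chromosome 5 had 2 higher of 3, and the Cxcl5, Cxcl1 and Cxcl2 group on the same chromosome 1 higher of 3. Over all genes, 15.5% were higher and 14.1% lower at 30 µg/kg.

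Genes next to the chemokine system were also higher. A list of 9 genes outside the symbol rule was counted, not all of them ligands or receptors. Of these 9, 6 were higher at 30 µg/kg and 0 lower (edgeR), where 15.5% of all genes were higher and 14.1% lower. The count lower was also 0 at an unadjusted p under 0.05 and with DESeq2. Ackr3, the scavenging receptor for Cxcl12, went from 0.514 ± 0.156 to 4.85 ± 1.49 CPM (log2 fold change 3.25, SE 0.29, adjusted p = 5.5e-12, edgeR). Ppbp, a platelet CXC ligand, and Xcr1, the receptor for Xcl1 on cross-presenting dendritic cells, had log2 fold changes of 2.31 (SE 0.72, adjusted p = 0.0121) and 1.97 (SE 0.47, adjusted p = 0.00138). Of 16 genes listed for chemokine receptor signalling, 10 were higher (against 15.5% of all genes) and 0 lower (again 0 lower unadjusted and with DESeq2). The higher ones included Rgs1 (1.77, SE 0.57), Pik3r5 (1.68, SE 0.47) and Fgr (1.39, SE 0.43), which are all enriched in leukocytes. The list was not split by whether a gene passes the signal on or ends it. Among 15 tested genes that induce chemokines (of 18 listed), 7 were higher and 1 lower, against 15.5% and 14.1% of all genes. The higher genes included the cytokines Tnf (2.40, SE 0.65), Il1b (2.17, SE 0.54), Ltb (1.45, SE 0.39) and Il1a (0.97, SE 0.23). The 1 lower gene, named after its value was seen, was Nfkbia, the inhibitor of NF-kappaB (-0.49, SE 0.17, adjusted p = 0.0283).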

How the data were processed

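Liver RNA of 45 mice was measured by RNA-Seq with 50 bp reads. Per the labels and methods, the authors checked reads with FastQC 0.11.2, aligned them to GRCm38 (Ensembl annotation) with TopHat 1.4.1, converted the alignments with SAMtools 0.1.19 and counted them per gene with HTSeq 0.6.1, where reads with more than 1 alignment stayed uncounted. The deposited values are raw read counts per gene with no normalization, 1 file per mouse. Random samples were pooled for sequencing, and the labels do not name the pools, so no value within pools was computed. Reads that no gene took (10.7% to 18.4% per mouse) stayed out of library totals. Replicates were 5 biological samples per dose, as the design text says.

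Symbols came from a table of Ensembl identifiers (37607 of 39179 matched), and positions from GENCODE on GRCm38, later than the authors' release. Counts were fitted with edgeR 4.0.16 in R 4.3.3 (TMM, 1 coefficient per group, all 45 mice, 17464 genes with more than 4 reads in any mouse, quasi-likelihood test, Benjamini-Hochberg adjustment within each comparison). SE was the absolute log2 fold change divided by the square root of F. CPM used TMM library sizes. The fit took the place of the study's own Bayesian procedure. Intervals are 95% exact and, like the floor of 3 counts, cover counting error only. DESeq2 1.42.0, other scalings, filters and leave-one-out fits were alternatives, and the fits were tested on simulated data. The members and lists were chosen with earlier results of these data known. Full statistics went to members called at 30 µg/kg that averaged 10 or more reads per mouse in the 2 groups compared, and to their cognate ligands or receptors. Cxcl1, Cxcl9, Cxcl13, Ccl24, Xcl1 and the receptors not called were added after their values were seen. At most 4 examples were named per list, by largest change. A member and a list gene that stay in the counts and sums are not reported here by name. The shallowest library had 11767284 reads, so that low members rest on single reads per mouse.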

Additional observations from a re-analysis of the deposited data

Results flagged for a closer look

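Levels of 19 members were examined in each of the 9 groups of 5 mice for a mouse far from the others (171 groups), and 8 were flagged by Dixon's criterion (0.71 for 5 values), where chance flags about 1 group in 20. Cxcl13 in mouse 5 at 0.01 µg/kg was the most extreme, at 17.9 CPM, where the other 4 mice had 0.375 to 1.10 CPM. In the same library Cxcl16 was flagged at 12.6 CPM, above 4.23 to 6.04 CPM in the others, and this is the library with 987 CPM of macrophage markers. Cxcl1 was flagged at 20.3 CPM in mouse 5 at 0.1 µg/kg (4.18 to 7.77 CPM in the others). In mouse 1 at 3 µg/kg, Ccl22 was flagged at 1.17 CPM (others 0.161 to 0.393 CPM) and Cxcl16 at 10.2 CPM (others 5.56 to 6.83 CPM). In mouse 2 at 1 µg/kg, Cxcl13 was high at 5.0 CPM (others 0.914 to 2.05 CPM) and Cxcl12 low at 421.0 CPM (others 530.0 to 564 CPM). Ccr2 was flagged at 4.53 CPM in mouse 2 at 0.3 µg/kg (others 1.57 to 2.43 CPM).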

How the results depend on the processing

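At 30 µg/kg the counts of higher and lower members stayed within 1.5 times the reported 19 and 5 under every alternative run, except that 2 members were lower when a fold change of at least 2 was also required. The expression filter of edgeR left 14 higher and 4 lower (without Ccl4, Ccl7, Ccl21a, Ccr6, Cxcl5 and Cxcr2), and DESeq2 gave 18 and 5. The count lower at 10 µg/kg, 5 as reported, was 3 with library totals only, with no filter on low counts and with vehicle and the dose fitted alone (each without Ccl25 and Ccl27a), and 3 with adjustment over all doses together, and 1 with a fold change of at least 2. The count lower at 3 µg/kg, 0 as reported, was 1 with the dose and vehicle fitted alone (Ccl9) and with DESeq2 (Ccl21a). At 3 µg/kg the calls of Ccl22 and Ccr7 ended with no filter on low counts and, with that of Cxcl9, when the dose and vehicle were fitted alone. Adjusted over all doses together, 1 member (Cxcl13) was higher at 0.01 µg/kg. The cause of these shifts was not tested. Leaving out each mouse in turn gave 5 to 10 members higher and 0 to 1 lower at 3 µg/kg, 3 to 5 lower at 10 µg/kg, and 0 to 1 changed from 3 to 10 and from 10 to 30 µg/kg. The fits without mouse 2 or 5 at 0.01 µg/kg or mouse 4 at 30 µg/kg for the trend and F tests were chosen after seeing the data, and gave 22 to 24 members rising, 5 to 6 falling and 20 to 23 with any difference. No paired analysis was possible because the labels give no replicate numbers. Depth limits the members with few reads, since 7 of the 24 called at 30 µg/kg had under 10 reads per mouse on average.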
